A study of Mus musculus with 6 samples.

Results

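Serum amyloid A genes (Saa1, Saa2, Saa3), haptoglobin (Hp), the orosomucoids Orm1 and Orm2, the inter-alpha-trypsin heavy chain Itih4 and the paraoxonases Pon1, Pon2 and Pon3 were followed in mouse epididymal fat, the visceral depot beside the epididymis. These 10 genes were among 54532 listed by Ensembl identifier, were found by symbol in GENCODE M21, and were chosen in part by their measured change with diet, because Pon1 and Itih4 were much lower on the high-fat diet. The levels, fold changes and call counts of the 10 genes between diets are therefore a description, given without p-values. RNA was sequenced from 3 samples of male C57BL/6J mice on a normal diet (ND, 4.5% fat) and 3 samples of male C57BL/6J mice on a high-fat diet (HFD, 60% fat), all labelled as not treated. Both diets began at 4 weeks of age, lasted 16 weeks and ended at 20 weeks. The libraries are called ND1 to ND3 and HFD1 to HFD3 after their labels. Since the labels do not say whether each sample is a separate mouse, p-values measure only the spread between these samples, which may be technical.

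Acute-phase proteins are plasma proteins whose output changes during inflammation or injury, mainly in the liver under interleukin-6, interleukin-1 and glucocorticoids acting through STAT3, NF-kB and C/EBP factors. Fat also makes several of them, and Saa3 and Hp are well-known products of adipose tissue. Paraoxonases are lactonases. Pon1 and Pon3 travel in blood on high-density lipoprotein (HDL), which serum amyloid A also binds during inflammation, while Pon2 stays inside cells.

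The count totals lay between 16996896 and 18859320 per library, and 3 counts, used as the floor, correspond to 0.150 to 0.181 CPM (counts relative to the library size scaled by the TMM method). Floors cover counting error only. Summed over 12 adipocyte markers, the ND libraries held 34765 to 44244 CPM and the HFD libraries 12619 to 32190 CPM. Adipocyte RNA was thus present in every library, but this sum cannot show which fat depot was sampled. Of these markers, 3 fell on HFD by edgeR, 5 by DESeq2 and 2 by limma-voom, and 0 rose by any of them or at an unadjusted p under 0.05 by edgeR. Fabp4 and Cfd had the most counts over all 6 libraries and so weigh most in this sum. Cfd went from 13634 ± 1938 CPM on ND to 1275 ± 1175 CPM on HFD, and Fabp4 from 12431 ± 1525 to 10495 ± 3712 CPM (SD, n = 3 each). Summed over 12 macrophage markers, they held 1897 to 2007 CPM and 4067 to 8862 CPM in turn, with 9 higher on HFD and the most counts over all 6 libraries in Lyz2 and C1qb. ND3 stood apart, with 362 CPM over 11 epithelial and ciliated markers against 10.1 to 14.0 CPM in the other libraries. None of the 10 genes was highest in ND3. In bulk tissue, fewer cells of a type and less RNA per cell cannot be told apart.

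The Saa and Orm genes lie in clusters of close relatives, so the sequences that a read must cover to be assigned are shown first. In GRCm38 the Saa genes lie together on chromosome 7, with Saa3 at chr7:46711998-46715700 (minus strand), Saa1 at chr7:46740497-46742980 (minus strand) and Saa2 at chr7:46751790-46754313 (plus strand). The coding sequences of Saa1 and Saa2 were 95.1% identical, and those of Saa1 and Saa3 76.2%. Coding bases 92 to 151, all in exon 3, show the difference. Capitals in the Saa1 and Saa2 lines mark the 7 bases at which these genes differ, and capitals in the Saa3 line mark its 5 differences from Saa1.
Saa1, chr7:46741335-46741394: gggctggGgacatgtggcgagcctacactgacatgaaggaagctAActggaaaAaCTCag
Saa2, chr7:46753418-46753477: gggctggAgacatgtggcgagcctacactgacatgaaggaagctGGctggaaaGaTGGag
Saa3, chr7:46712668-46712727: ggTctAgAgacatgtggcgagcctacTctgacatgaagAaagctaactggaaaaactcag
Of all 50-base words in the annotated transcripts, 68.5% in Saa1 and 70.0% in Saa2 occurred in no other gene, against 96.4% in Saa3. Reads of Saa1 and Saa2 could therefore be split between the pair or lost, and their counts are uncertain.

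On chromosome 4, Orm1 (chr4:63344560-63348163), Orm3 and Orm2 (chr4:63362449-63365878) follow each other on the plus strand. The coding sequences of Orm1 and Orm2 were 89.9% identical. Coding bases 138 to 197, in exon 2, hold 17 differences, marked by capitals in both lines.
Orm1, chr4:63345089-63345148: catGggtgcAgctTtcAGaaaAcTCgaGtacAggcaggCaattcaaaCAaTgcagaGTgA
Orm2, chr4:63362964-63363023: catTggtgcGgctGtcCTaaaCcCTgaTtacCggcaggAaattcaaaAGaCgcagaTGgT
Of their 50-base words, 79.6% in Orm1 and 77.3% in Orm2 occurred in no other gene, so a part of the reads of each could be assigned to the other. The Pon genes, on the minus strand of chromosome 6, were 63.1% to 67% identical in their coding sequences. At least 99.8% of the 50-base words of Pon1, Pon2, Pon3, Hp and Itih4 occurred in no other gene.

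The bases upstream of Saa3, Orm2, Itih4 and Pon1, the tested genes with the largest fold changes in size, are shown from RefSeq (GRCm38.p6), in which 8 of the 10 genes had a promoter window. Each sequence is the 250 bases before the annotated start. Capitals mark matches, on either strand, to motifs of acute-phase regulators or to the TATA pattern TATAAA.
Saa3, chr7:46715677-46715926, minus strand: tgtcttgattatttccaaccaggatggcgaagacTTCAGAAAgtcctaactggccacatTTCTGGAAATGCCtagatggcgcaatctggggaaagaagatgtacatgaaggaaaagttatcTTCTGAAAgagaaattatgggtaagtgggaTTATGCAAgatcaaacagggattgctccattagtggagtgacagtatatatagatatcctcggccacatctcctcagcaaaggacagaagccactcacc
Orm2, chr4:63362199-63362448, plus strand: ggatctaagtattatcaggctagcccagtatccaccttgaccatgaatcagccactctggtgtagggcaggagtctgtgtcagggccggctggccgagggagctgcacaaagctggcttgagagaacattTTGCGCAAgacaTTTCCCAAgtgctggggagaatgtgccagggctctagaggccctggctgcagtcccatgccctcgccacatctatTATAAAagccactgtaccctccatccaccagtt
Itih4, chr14:30886226-30886475, plus strand: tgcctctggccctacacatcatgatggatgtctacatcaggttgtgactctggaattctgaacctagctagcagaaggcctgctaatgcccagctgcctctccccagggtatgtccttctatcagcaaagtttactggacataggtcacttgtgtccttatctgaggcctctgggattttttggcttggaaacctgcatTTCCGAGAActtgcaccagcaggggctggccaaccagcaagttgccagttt
Pon1, chr6:5193947-5194196, minus strand: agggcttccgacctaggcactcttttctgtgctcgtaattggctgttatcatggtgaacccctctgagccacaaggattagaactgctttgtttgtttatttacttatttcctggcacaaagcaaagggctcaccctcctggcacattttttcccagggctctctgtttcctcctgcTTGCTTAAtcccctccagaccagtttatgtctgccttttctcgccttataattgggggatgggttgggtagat
The C/EBP pattern TTNNGNAA occurred in 7 of the 8 windows, and in 36.8% of the windows of 32851 promoters. Saa3 held 4 matches to it, more than any other of the 8 genes. The NF-kB pattern GGNNTTTCC occurred only in Saa3 among the 8, from base 187 to 179 before the start, where it overlaps a C/EBP match, and in 4.93% of all windows. The STAT pattern TTCNNNGAA occurred only in Itih4 among the 8, from base 51 to 43 before the start, and in 7.02% of all windows. Orm2 alone of the 8 held TATAAA (12.4% of all windows), and none held the HNF1 pattern GTTAATNAT (0.737%). A match is a description of letters, not a binding site.

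Levels of different genes can be compared only per length, for which the deposited FPKM values (fragments scaled to gene length and library depth) were used. Hp was by far the most abundant of the 10 genes, at 2468 ± 624 FPKM on ND and 1391 ± 176 FPKM on HFD (SD, n = 3 each here and below). Orm1 followed at 251 ± 118 and 200 ± 91.9 FPKM. Pon3 and Pon2 were at 34.6 ± 8.27 and 15.7 ± 1.64 FPKM on ND and at 25.9 ± 8.42 and 22.7 ± 1.93 FPKM on HFD. On ND, each of Hp, Orm1, Pon3 and Pon2 stood above the next gene in the order without overlap, Pon1 being the next after Pon2. From Pon1 (3.58 ± 1.58 FPKM) down, neighbours in the ND order of Saa3, Itih4, Orm2, Saa1 and Saa2 overlapped. On HFD, Pon3 overlapped Pon2, Saa3 overlapped Orm2, and Itih4, Pon1, Saa1 and Saa2 overlapped each neighbour at the bottom of the order, in which Itih4 and Pon1 stood below Orm2. The divisor behind these FPKM values was close to the length of all annotated exons together, which for Pon2 is 7339 bases against 1065 coding bases and for Pon3 3385 against 1065, so the level of Pon2 relative to Pon3 depends on that length.

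**Figure D1:**
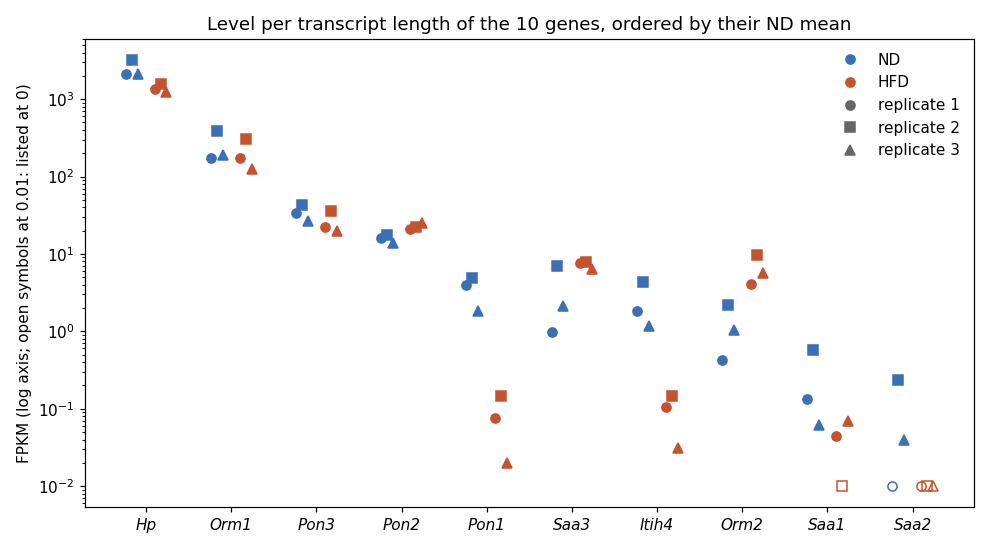
FPKM (log axis) of the 10 genes in each of the 3 ND and 3 HFD libraries, ordered by the ND mean, with libraries listed at 0 drawn as open symbols at 0.01. Hp lies above every other gene in every library, and the HFD points of Pon1 and Itih4 lie below their ND points by more than the spread within either diet.

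Of the 10 genes, 8 had enough counts to be fitted among 15751 genes by edgeR's quasi-likelihood model, and Saa1 and Saa2 did not. At an adjusted p-value of 0.05, 4 of the 8 were past the threshold (15.9% of all genes), 2 of them higher on HFD (9.85% of all genes) and 2 lower (6.04% of all genes). Orm2 and Pon2 were the higher pair, and Pon1 and Itih4 the lower. The CPM ranges of the diets did not overlap for 5 of the 8, the same 4 and Hp, and for 40.9% of all genes. The median log2 fold change of the 8 was -0.35, against 0.01 over all genes. As the diet contrast chose the genes, nothing is read from these shares.

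Pon1 (ENSMUSG00000002588, chr6:5168090-5193946, minus strand) encodes the serum enzyme that hydrolyses lactones and the oxidised form of the insecticide parathion. It had 211, 240 and 106 counts in ND1, ND2 and ND3 and 4, 7 and 1 counts in HFD1, HFD2 and HFD3. Scaled to depth, ND gave 11.4, 13.9 and 5.30 CPM, and HFD gave 0.219, 0.422 and 0.0576 CPM. Every HFD library was far below every ND library, and HFD3 was under the floor of 3 counts. The means were 10.2 ± 4.43 and 0.233 ± 0.182 CPM, and the log2 fold change was -5.42 (SE 0.63). It lay between -6.12 and -5.0 with any 1 library left out and stayed past the threshold in all 6 such fits.

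Pon2 (ENSMUSG00000032667, chr6:5264147-5298455, minus strand), the intracellular paraoxonase, had 114, 124 and 102 CPM in ND1 to ND3 and 154, 161 and 182 CPM in HFD1 to HFD3. All HFD libraries were above all ND libraries, and the spread within a diet was small (SD 11 on ND and 14.4 on HFD). The log2 fold change was 0.55 (SE 0.13), between 0.44 and 0.62 with 1 library left out, and only the fit without HFD2 kept it past the threshold. An annotated gene on the opposite strand, Gm44424, overlaps its exons, and whether strand was used in counting is not given in the sources used here.

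Pon3 (ENSMUSG00000029759, chr6:5220852-5256286, minus strand) lies between the other two and encodes an HDL-bound lactonase. Its levels in CPM were 112, 143 and 90.1 with ND and 75.7, 119 and 66.7 with HFD. The diets overlapped, with HFD2 above ND1 and ND3. The log2 fold change was -0.40 (SE 0.26) and lay between -0.69 and -0.21 with 1 library left out.

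Within 1 locus, Pon1 was thus lower and Pon2 higher on HFD without overlap, while the diets overlapped for Pon3. The make-up of the family also differed between diets, and the share of Pon1 follows from the drop for which it was chosen. Pon1 took 4.79%, 4.94% and 2.68% of the family's counts in ND1 to ND3 and 0.0950%, 0.150% and 0.0232% in HFD1 to HFD3. Pon2 took 44.1% to 51.7% on ND and 57.3% to 73.2% on HFD. Pon3 took 45.6% to 50.9% on ND and 26.8% to 42.5% on HFD. Counts are not scaled to length, so these shares do not rank the genes by level. By FPKM, Pon3 took 62.8% to 66.1% on ND and 51.5%, 61.5% and 44.3% in HFD1 to HFD3. Pon2 took 26.4% to 32.9% of the FPKM on ND and 48.3%, 38.3% and 55.7% in HFD1 to HFD3. The ratio of Pon2 to Pon3 counts was 1.02, 0.866 and 1.14 on ND and 2.04, 1.35 and 2.73 on HFD, without overlap. Summed over the family, the FPKM were 53.7, 65.4 and 42.6 on ND and 43.6, 57.7 and 44.6 on HFD, and these totals overlapped.

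**Figure D2:**
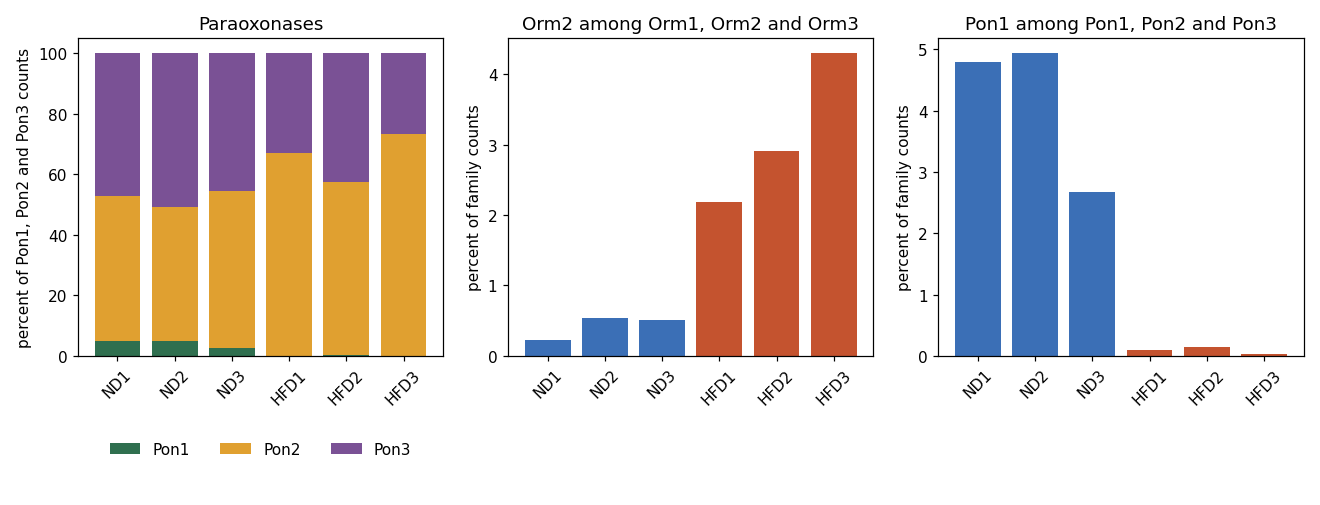
Shares of family counts by library: left, Pon1, Pon2 and Pon3 as a percentage of their summed counts; middle, Orm2 as a percentage of the counts of Orm1, Orm2 and Orm3; right, Pon1 on its own scale. Bars are single libraries without error bars; the Orm2 share is 0.222% to 0.540% on ND and 2.19% to 4.30% on HFD, and the Pon1 share is at least 2.68% on ND and at most 0.150% on HFD.

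Itih4 (ENSMUSG00000021922, chr14:30886476-30902353, plus strand) encodes an inter-alpha-trypsin inhibitor heavy chain that is secreted by the liver as an acute-phase protein. It had 124, 273 and 85 counts in ND1 to ND3 and 7, 9 and 2 counts in HFD1 to HFD3, which are 6.69, 15.8 and 4.25 CPM and 0.383, 0.542 and 0.115 CPM. Every HFD library was below every ND library. The means were 8.93 ± 6.11 and 0.347 ± 0.216 CPM, with a log2 fold change of -4.66 (SE 0.70). With 1 library left out it lay between -5.11 and -3.96 and was past the threshold in 5 of 6 fits, all but that without HFD1.

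Over the 6 libraries Itih4 and Pon1 had profiles close to each other. The measure of likeness was the root mean square difference of log2(CPM + 0.1) values centred on each gene's mean, where a small value means a like profile, over 12518 protein-coding genes. The nearest gene to Pon1 was Itih4 and the nearest to Itih4 was Pon1 (0.47). Next to Pon1 came Cyp1a1 (0.63), a cytochrome P450 induced through the aryl hydrocarbon receptor, and Acsm3 (0.78). Next to Itih4 came Acsm3 (0.58) and Trp63 (0.59), an epithelial transcription factor. The diet difference and the order within each diet both enter this measure. Pon1 and Itih4 were chosen in part because both were much lower on HFD, so their likeness follows in part from that choice. Their HFD values rest on at most 9 counts per library.

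Hp (ENSMUSG00000031722, chr8:109575128-109579172, minus strand) encodes haptoglobin, which binds free haemoglobin. Its counts were 61864, 86543 and 67101 in ND1 to ND3 and 39048, 42114 and 34808 in HFD1 to HFD3. Hp alone took 0.341% to 0.462% of each ND library and 0.196% to 0.248% of each HFD library. In CPM, the ND libraries held 3340, 5020 and 3354 and the HFD libraries 2134, 2536 and 2005, without overlap. The log2 fold change was -0.81 (SE 0.25), between -0.94 and -0.59 with 1 library left out, and it did not pass the threshold. It passed with DESeq2's test and with library sizes left unscaled. Coasy (0.06), Nudt7 (0.07) and Aifm1 (0.07), a coenzyme A synthase, a peroxisomal hydrolase and a mitochondrial flavoprotein, had the profiles most like that of Hp.

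Orm1 (ENSMUSG00000039196) and Orm2 (ENSMUSG00000061540) encode alpha-1-acid glycoproteins, plasma proteins that bind drugs and lipophilic molecules. Orm1 was at 134, 294 and 146 CPM in ND1 to ND3 and at 133, 233 and 96.6 CPM in HFD1 to HFD3. The diets overlapped, with the second library highest in each. The log2 fold change was -0.31 (SE 0.41) and turned to 0.14 without ND2.

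Orm2 had 6, 29 and 16 counts on ND and 57, 125 and 77 counts on HFD. In CPM, ND gave 0.324, 1.68 and 0.800 and HFD gave 3.11, 7.53 and 4.43, all HFD libraries above all ND libraries. The log2 fold change was 2.42 (SE 0.61), between 2.02 and 3.14 with 1 library left out, and none of these 6 fits kept it past the threshold. Orm2 counts were 0.241%, 0.572% and 0.548% of Orm1 counts on ND and 2.34%, 3.23% and 4.59% on HFD. Orm1 remained the main gene of the family in every library, at 90.1% to 94.4% of its counts. Among the HFD libraries, Orm1 was lowest in HFD3 and Orm2 in HFD1, and the share of Orm2 was highest in HFD3. Orm3, the gene between them, stood at 12.3 ± 3.17 and 8.50 ± 8.42 CPM on the respective diets (log2 fold change -0.54, SE 0.68, adjusted p = 0.613 by edgeR's quasi-likelihood test with Benjamini-Hochberg adjustment).

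Saa3 (ENSMUSG00000040026) encodes the serum amyloid A protein made mostly outside the liver. It had 46, 307 and 111 counts in ND1 to ND3 and 365, 335 and 291 counts in HFD1 to HFD3. In CPM, the ND libraries held 2.48, 17.8 and 5.55 and the HFD libraries 19.9, 20.2 and 16.8. The HFD libraries were close together and ND2 lay among them, while ND1 and ND3 were lower. The coefficient of variation was 94.1% on ND and 10.1% on HFD. The log2 fold change was 1.14 (SE 0.61), between 0.70 and 2.24 with 1 library left out, and it passed the threshold only without ND2 (2.24). Fam83d (0.38), Ncan (0.40) and Chil3 (0.51), a chitinase-like protein of macrophages, had the profiles most like that of Saa3.

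Saa1 (ENSMUSG00000074115) and Saa2 (ENSMUSG00000057465), the serum amyloid A genes of the liver, were at the limit of detection. Saa1 had 6, 24 and 3 counts on ND and 2, 0 and 3 counts on HFD. Saa2 had 0, 10 and 2 counts on ND and 0 in every HFD library, which allows up to 3 counts per library. ND2 held 34 counts over both genes, against 6 in ND1 and 5 in ND3, and no fold change is given. Saa3 took 85.9% to 94.5% of the family's FPKM on ND and 98.9% to 100% on HFD.

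**Figure D3:**
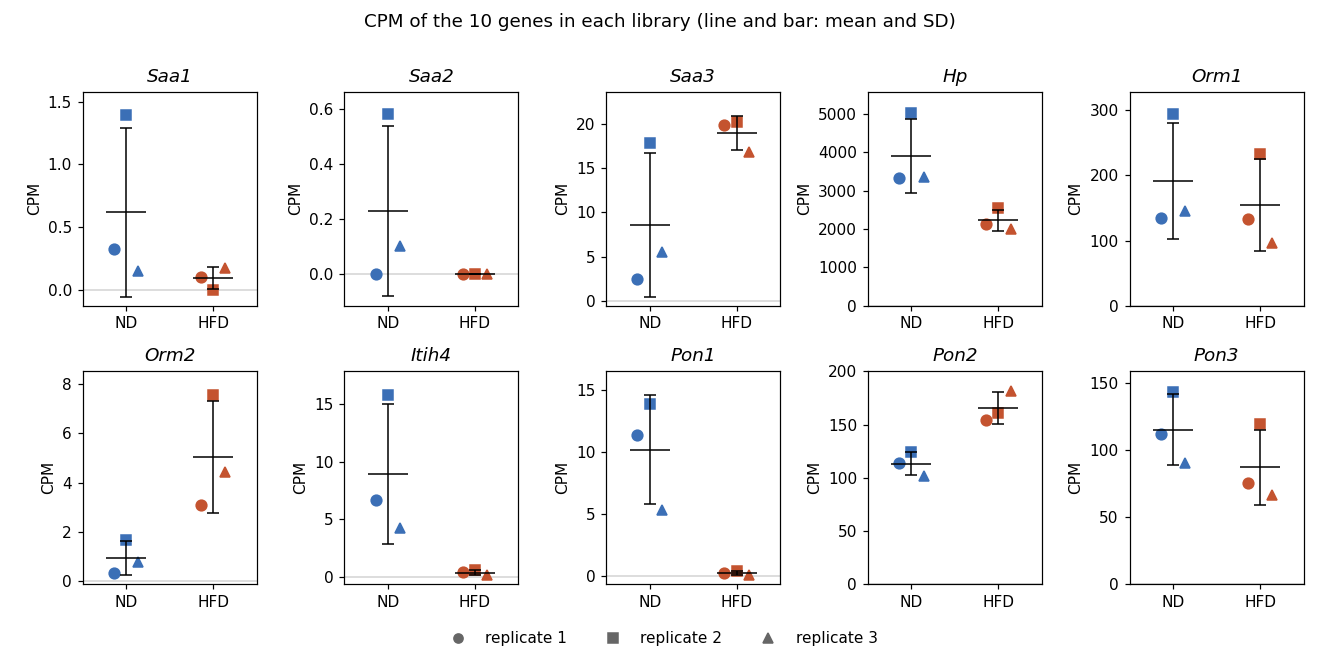
CPM of each of the 10 genes in the 3 ND and 3 HFD libraries, with a line for the mean and a bar for the SD, on a linear axis per gene. The second ND library is the highest ND library in all 10 panels, and the diets are apart without overlap for Hp, Orm2, Itih4, Pon1 and Pon2.

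Within each diet, many of the 10 genes were highest in the same library. All 10 were highest in ND2 among the ND libraries, and 7 of 10 were highest in HFD2 among the HFD libraries. Of the 8 genes fitted, 8 were highest in ND2 against 36.4% of all genes, 7 in HFD2 against 37.4%, and 7 in both against 14.9% of all genes. The exception in HFD was Pon2, which was highest in HFD3. The other acute-phase genes (described with the pathways) were highest in ND2 for 11 of 18 and in HFD2 for 12 of 18. The order within HFD is not independent of the diet contrast that chose the genes. Over all genes fitted, log2 CPM correlated with the ND libraries at 0.956 to 0.965 for HFD2. For HFD1 it was 0.938 to 0.946 and for HFD3 0.901 to 0.909. A gene chosen for a drop on HFD is thus more likely to be highest in HFD2, so these shares are a description.

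The adipocyte marker sum had the same top libraries. It was 40063, 44244 and 34765 CPM in ND1 to ND3 and 20803, 32190 and 12619 CPM in HFD1 to HFD3, and 8 of its 12 markers were highest in ND2 and 12 of 12 in HFD2. The full order of that sum within HFD was shared by Saa3, Hp, Orm1, Itih4, Pon1 and Pon3, 6 of 8 against 28.2% of all genes. The order within ND was shared by 4 of 8, Itih4, Pon1, Pon2 and Pon3, against 22.5%. Itih4, Pon1 and Pon3 followed both orders, which 7.36% of all genes did. The HFD orders of Pon1 (4, 7 and 1 counts in HFD1 to HFD3) and Itih4 (7, 9 and 2 counts) lie near the floor of 3 counts and are uncertain. The macrophage sum had the opposite order within HFD, at 5216, 4067 and 8862 CPM in HFD1 to HFD3. The part of cell make-up in these orders was not tested.

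Marker lists of other cell types ranged widely in level. Fibroblast and progenitor markers summed to 4292 to 4561 CPM with ND and 3576 to 4845 CPM with HFD, and mesothelial markers to 333 to 456 CPM and 246 to 432 CPM in turn. Summed over 11 hepatocyte markers, ND libraries held 17 to 23.4 CPM and HFD libraries 3.92 to 10.8 CPM. Cyp3a11 was at 0 in every library, and Apoh, F2, Mat1a and Ttr had at most 10 counts over all 6. Albumin (Alb) had 253, 337 and 230 counts on ND and 60, 128 and 15 counts on HFD (log2 fold change -1.92, SE 0.65, adjusted p = 0.0847 by edgeR's quasi-likelihood test with Benjamini-Hochberg adjustment). It made up most of the sum in every library but HFD3, where Ahsg was higher (2.59 against 0.864 CPM). Ahsg had a log2 fold change of 1.40 and was not past the threshold, and Apoc3 fell by 1.92 on the log2 scale (adjusted p = 0.0289 by the same test). Markers of the epididymis summed to at most 1.51 CPM in any library, with 3 of 10 at 0 throughout. Neutrophil markers summed to 8.10 to 12.8 CPM with ND and 14.9 to 19.6 CPM with HFD, and Ly6g had 1 count in all. This list was split, with a median log2 fold change of -0.81 over the 5 markers tested. S100a8 (1.45) and Csf3r (1.36) were past the threshold as higher on HFD. Camp was past it as lower (-4.26, adjusted p = 0.0186 by the same test), and S100a9 (-0.81) and Elane (-0.97) were not past it.

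The genes of the same pathways were tested by edgeR's quasi-likelihood test with Benjamini-Hochberg adjustment over all 15751 genes, and no test compared the lists with each other. Of 29 other acute-phase genes, 18 could be tested, and 4 fell on HFD, 0 rose and 14 did not pass the threshold (median log2 fold change -0.28). At an unadjusted p under 0.05, 1 was higher by edgeR, and DESeq2 called 1 higher and limma-voom 0. Ceruloplasmin (Cp), the plasma copper carrier, fell from 271 ± 10.6 to 92.8 ± 26.8 CPM (log2 fold change -1.55, SE 0.23, adjusted p = 0.00934 by that edgeR test). The metalloreductase Steap4 fell from 869 ± 55.1 to 400 ± 101 CPM (-1.12, SE 0.22, adjusted p = 0.0188). The serine protease inhibitors Serpina3m (-1.79, SE 0.39, adjusted p = 0.0251) and Serpina1a (-1.70, SE 0.41, adjusted p = 0.0344) fell from 5.73 ± 2.12 to 1.66 ± 0.579 CPM and from 7.73 ± 1.91 to 2.37 ± 1.17 CPM. Cp kept its call in all 6 fits with 1 library left out, while Steap4, Serpina3m and Serpina1a lost theirs without ND1, ND2, ND3 or HFD1. Serpina3m and Serpina1a belong to clusters of near-identical copies, among which reads can be split. Lcn2 stood at 99.0 CPM in ND3 and at 3.43 to 6.48 CPM in the other libraries, so that its log2 fold change of -3.07 (SE 1.15, adjusted p = 0.111 by edgeR) rests on ND3. The classical liver genes Crp, Apcs, Fga, Fgb, Fgg and Hamp had 0 to 16 counts over all libraries and were not tested.

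Of 9 genes of the inter-alpha-trypsin and hyaluronan group, 6 could be tested, with 2 higher and 1 lower on HFD (median log2 fold change 0.14). Inter-alpha-trypsin heavy chains are linked to hyaluronan by Tnfaip6, which rose from 3.93 ± 0.845 to 7.40 ± 0.702 CPM (0.91, SE 0.24, adjusted p = 0.0427 by edgeR). The hyaluronan synthase Has1 rose from 0.617 ± 0.284 to 2.94 ± 0.805 CPM (2.23, SE 0.46, adjusted p = 0.0213 by edgeR). Has3, another such synthase, fell from 7.18 ± 1.78 to 1.87 ± 0.882 CPM (-1.94, SE 0.39, adjusted p = 0.0203 by edgeR). With 1 library left out, no call of these 3 held throughout: without ND1, ND2 or HFD1 none passed, and without HFD2 all did. Itih5, the abundant heavy chain of fat, was at 471 ± 64.4 and 762 ± 320 CPM with overlapping diets (0.69, SE 0.32, adjusted p = 0.173 by edgeR). Itih1, Itih3 and Ambp, the light chain gene, had 7, 58 and 0 counts in all and were not tested.

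Of 18 genes that act on or travel with HDL, 12 could be tested, and 3 rose and 2 fell on HFD (median log2 fold change 0.15). The cholesterol exporter Abcg1 rose from 15.3 ± 0.826 to 127 ± 38.7 CPM (3.05, SE 0.23, adjusted p = 0.00271 by edgeR). The phospholipid transfer protein Pltp rose from 119 ± 14.0 to 562 ± 108 CPM (2.25, SE 0.20, adjusted p = 0.00344 by edgeR). Pla2g7, which, like the paraoxonases, acts on oxidised lipids, rose from 16.6 ± 0.820 to 85.6 ± 54.2 CPM (2.36, SE 0.41, adjusted p = 0.0139 by edgeR), and at 148 CPM it was highest in HFD3, where the macrophage sum was also highest. Endothelial lipase (Lipg) fell from 3.22 ± 1.27 to 0.860 ± 0.161 CPM (-1.89, SE 0.39, adjusted p = 0.0220 by edgeR), and Apoc1 fell from 116 ± 12.6 to 43.9 ± 17.8 CPM (-1.40, SE 0.29, adjusted p = 0.0220 by edgeR). Abcg1 and Pltp kept their calls with any 1 library left out. Without ND1 or ND2 the calls of Pla2g7, Lipg and Apoc1 were lost, as were those of Pla2g7 and Apoc1 without ND3 and that of Lipg without HFD1. Apoa1, the main protein of HDL, had 31 counts in all and was not tested. The part of macrophage number in these differences was not tested.

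Among 31 inducers and signalling genes of the acute-phase response, 24 could be tested, and 5 rose on HFD and 0 fell (median log2 fold change 0.36). At an unadjusted p under 0.05, 2 were lower by edgeR, and DESeq2 called 2 lower and limma-voom 0. Tnf rose from 0.834 ± 0.220 to 3.14 ± 1.05 CPM (1.90, SE 0.40, adjusted p = 0.0221 by edgeR). The glucocorticoid-induced Tsc22d3 rose from 146 ± 26.5 to 276 ± 4.0 CPM (0.92, SE 0.16, adjusted p = 0.0142 by edgeR), and the interleukin-6 receptor Il6ra from 48.2 ± 4.67 to 79.1 ± 7.01 CPM (0.71, SE 0.12, adjusted p = 0.0132 by edgeR). Nfkb2 (0.64) and Relb (0.42), partners in the non-canonical NF-kB pathway, were the other two. None of Tnf, Tsc22d3 and Il6ra passed without ND1 or without HFD1. Il6 itself had 30 counts in all and was not tested. Among the C/EBP factors, Cebpa was at 1322 ± 183 and 728 ± 230 CPM (-0.86, SE 0.26, adjusted p = 0.0652 by edgeR) and Cebpd at 38.0 ± 7.67 and 65.5 ± 19.2 CPM (0.79, SE 0.25, adjusted p = 0.0701 by edgeR), neither past the threshold.

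Of 10 receptors for these proteins and enzymes of haem breakdown, 8 could be tested, and 4 rose on HFD (median log2 fold change 0.82). Haem oxygenase 1 (Hmox1), which breaks down haem, rose from 45.7 ± 4.61 to 246 ± 229 CPM (2.43, SE 0.63, adjusted p = 0.0414 by edgeR), with 144, 84.4 and 508 CPM in HFD1 to HFD3. Without HFD3 its log2 fold change was 1.30 and still past the threshold, and without ND1, ND2, ND3 or HFD1 it was not past it, nor was Tlr2. Hmox1 was also not past the threshold by limma-voom (adjusted p = 0.0506), with no filter on low counts (0.174), with the replicate block (0.0930) or by limma on FPKM (0.0703 to 0.157). P2rx7 kept its call in all 6 fits with 1 library left out. P2rx7 rose from 16.2 ± 0.578 to 51.2 ± 14.8 CPM (1.66, SE 0.21, adjusted p = 0.00724 by edgeR). Tlr2, a receptor that serum amyloid A can engage, rose from 10.6 ± 2.15 to 22.2 ± 5.73 CPM (1.07, SE 0.24, adjusted p = 0.0261 by edgeR), and Lrp1 by 1.04 on the log2 scale. Cd163, the scavenger receptor that takes up complexes of haptoglobin and haemoglobin, was at 66.8 ± 13.3 and 64.4 ± 12.2 CPM (-0.05, SE 0.20, adjusted p = 0.878 by edgeR).

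**Figure D4:**
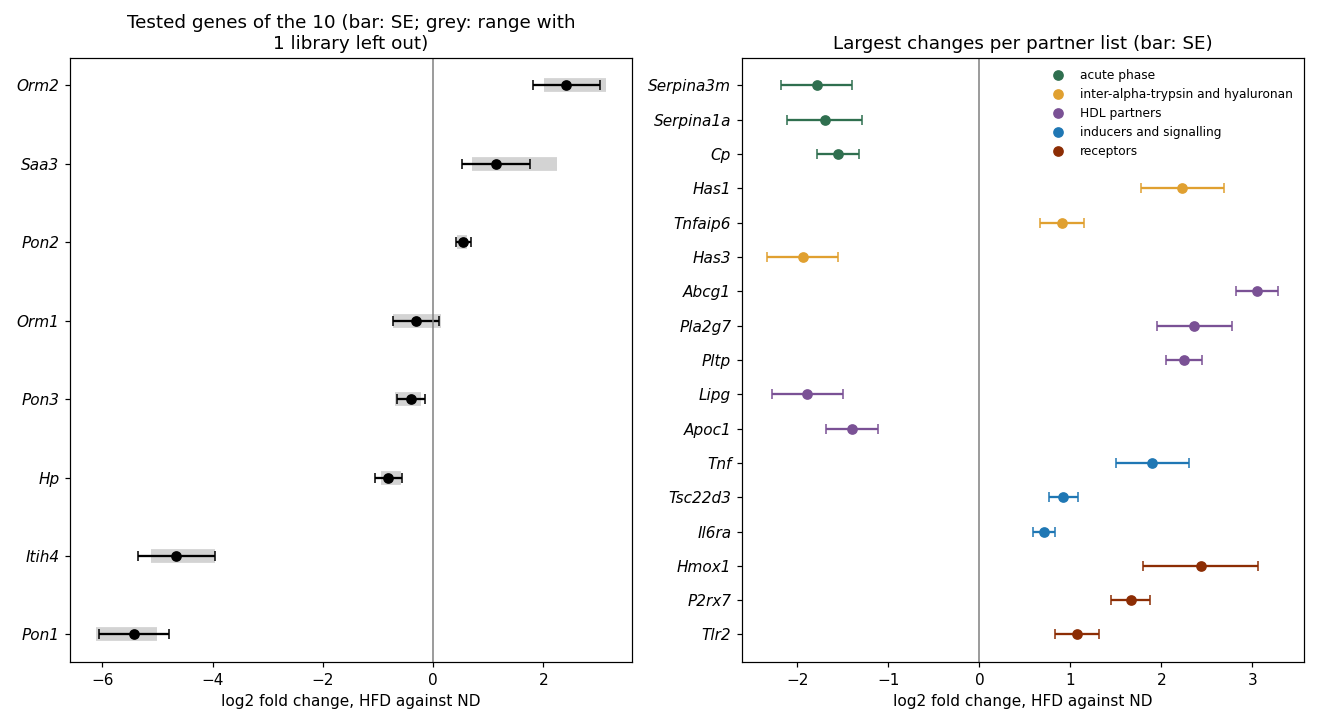
Left, log2 fold change (HFD against ND) of the 8 genes that could be fitted, with bars for the SE and grey bands for the range when 1 library is left out. Right, log2 fold changes with SE bars of the partner genes past the threshold, at most the 3 largest per list and direction; Pon1 and Itih4 lie farthest to the left in the left panel at -5.42 and -4.66, and only the band of Orm1 crosses 0.

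The nearest tested protein-coding genes around the loci were read beside them, 11 in all. Of these, only Akna, 1247 bases beyond the end of Orm2, was past the threshold, rising from 18.6 ± 0.691 to 34.0 ± 5.37 CPM (0.87, SE 0.14, adjusted p = 0.0118 by edgeR's quasi-likelihood test with Benjamini-Hochberg adjustment). Beside the Pon genes, Ppp1r9a changed by -0.51 on the log2 scale (adjusted p = 0.347) and Asb4 by 2.12 (SE 0.70, adjusted p = 0.0799). Beside Hp, Txnl4b (-0.63, adjusted p = 0.0523) and Dhodh (-0.51, adjusted p = 0.0565) were lower on HFD without overlap, as Hp was, and did not pass the threshold. The diets did not overlap for 40.9% of all genes. Beside Itih4, Mustn1 was at 0.49 and Nek4 at -0.43, the latter also without overlap. Around the Saa genes Saal1 was at -0.10 and Hps5 at 0.15, and none of these genes beside Itih4 and Saa was past the threshold.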

How the data were processed

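Total RNA from epididymal fat of 3 ND and 3 HFD samples was sequenced. The authors deposited raw read counts per gene, without normalization, together with FPKM values of every gene in each library. The paper's methods name TopHat and Cufflinks on GRCm38, whereas the submitters' processing notes name CASAVA 1.8, fastp, HISAT2 2.0.5, featureCounts 1.5.0-p3, DESeq2 1.20.0 and a human build, although every identifier is a mouse gene. Symbols and coordinates came from GENCODE M21 (54409 of 54532 identifiers found), and all 10 genes and 185 listed genes were matched.

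Counts were fitted over all genes with edgeR 4.0.16 (R 4.3.3; TMM, filterByExpr, glmQLFit with robust=TRUE, glmQLFTest), with Benjamini-Hochberg adjustment over 15751 genes and a threshold of 0.05. The fit was repeated with DESeq2 1.42.0 and with voom from limma 3.58.1, with other scalings and filters, with limma on log2(FPKM + 1) or log2(FPKM + 0.1) for genes of at least 0.5 FPKM in 3 libraries, with the replicate number as a block, and with each library left out. The fitting script was tested on simulated data. Totals of 16996896 to 18859320 counts per library set the floor of 3 counts. The 10 genes and all lists were chosen with earlier results of these data known. Named genes are the 10, up to 3 per list and direction with the largest change past the threshold, the nearest tested protein-coding neighbours, the 3 most alike profiles, and each marker list's most abundant genes and defining markers at 0. Others named in the lists were chosen after their values were seen.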

Additional observations from a re-analysis of the deposited data

How the results depend on the processing

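Pon1 was lower on HFD and past the threshold under every alternative run. Itih4 was past it in all but the fit without HFD1 and limma on log2(FPKM + 1) with no filter on low values. Both genes were chosen in part for their drop in these same libraries, so their calls in the refits are a description. Of 128 refits of single genes among the 10, 107 kept direction and side of the threshold, 17 lost the call, 3 gained it and 1 turned, which was Orm1 at 0.14 (SE 0.37) without ND2 (-0.73 without HFD2). Of the 10 genes, 2 were higher and 2 lower on HFD. The higher count was 1 with no filter on low counts and 0 by limma on log2(FPKM + 1) with no filter, where the lower count was 1. With 1 library left out the higher count ranged from 0 to 1 and the lower from 1 to 2. For the other acute-phase genes (0 higher, 4 lower), 1 was higher by DESeq2, with library size only and with no filter, 1 was lower by limma with no filter, and with 1 library left out 0 to 2 were higher and 1 to 5 lower. For HDL genes lower (2), limma on log2(FPKM + 1) gave 1 with and 0 without the filter, and leaving out 1 library 0 to 2. For inducers and signalling genes (5 higher, 0 lower), DESeq2 gave 8 and 2, library size only and both limma fits with the filter gave 3 higher, limma with no filter gave 2, and leaving out 1 library 0 to 7 higher and 0 to 2 lower. Over all genes (1552 higher, 952 lower), DESeq2 gave 1596 lower, limma with no filter 394 higher and 255 lower, and leaving out 1 library 337 to 2368 higher and 94 to 1572 lower, lowest without ND1 (337) and HFD1 (94) and highest without HFD2. The cause of these shifts was not tested.

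Over all genes, no pairing by replicate number was seen. Deviations from the group means correlated at -0.0528, -0.0223 and 0.00344 between same-numbered libraries, and no ND library correlated best with its own number. With 3 libraries per diet, this cannot tell whether the samples were paired. With the block, the SE of Orm1 went from 0.41 to 0.16 and that of Itih4 from 0.70 to 0.36, while among the 10 genes only that of Pon2 rose (0.13 to 0.14). With the replicate block 1886 genes passed in place of 2504, and 1 of the 10 genes was higher (Orm2) and 1 HDL gene lower. Depth limits Saa1, Saa2, and the HFD levels of Pon1 and Itih4, which rest on at most 9 counts per library.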
